A study of Mus musculus with 39 samples.

Results

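Immune checkpoint therapy (ICT) added to tretinoin was compared with tretinoin alone in AB1-HA tumours. AB1-HA is a mouse mesothelioma line that carries influenza haemagglutinin, grown here under the skin of BALB/c mice. The members were chosen by their treatment label: 10 tumours labelled Tretinoin+ICT and 9 labelled Tretinoin, 19 of the 39 tumours in the series. Every mouse in both groups received tretinoin. By the labels, each mouse had 5 daily tretinoin doses of 5 mg/kg, the first on day 4 after inoculation, and the combination group also had 100 µg each of antibodies to CTLA-4 and PD-L1 on day 7. Tumours were resected on day 9. The study's own text names other tretinoin schedules and a higher dose for the single-agent arm in places, so a difference in tretinoin exposure and the addition of ICT cannot be told apart from the labels alone. The model is 1 cell line in 1 strain, with adult mice of both sexes named in the methods, and whole tumours were profiled, so a change in a transcript can reflect fewer cells of a type or less RNA per cell, which cannot be told apart in bulk RNA.

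Tretinoin, or all-trans retinoic acid, is a vitamin A derivative that enters the nucleus and binds retinoic acid receptors paired with retinoid X receptors on DNA. Its targets include the enzymes that remove it, so a cell exposed to tretinoin raises its own clearance. CTLA-4 restrains T cell priming and is carried at high levels by regulatory T cells, and PD-L1 on tumour and myeloid cells engages PD-1 on T cells. Blocking both releases T cells, and the interferon gamma that they secrete drives chemokines, antigen presentation and PD-L1 itself in surrounding cells.

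Total counts were 15565521 to 37951183 in the combination group (median 18719352) and 15435493 to 20792937 in the tretinoin group (median 18827879). The largest total belonged to tumour AB45. Pearson's r between pairs of tumours across genes was 0.9347 to 0.9917. Tretinoin tumour AB33 stood apart from the other tretinoin tumours, with the highest summed level among them of MHC class I, MHC class II, macrophage and checkpoint genes, so counts are also given without it where they move. The tumour names fall into series by their first digit, 2 and 4 in the combination group and 3 and 7 in the tretinoin group, so name series and treatment cannot be told apart. As a check for other tissues, none of 7 skeletal muscle, 5 adipocyte, 5 erythroid or 4 keratinocyte genes tested passed an adjusted p of 0.05 in either direction. Summed muscle transcripts spanned 582.4 to 4168 CPM (TMM-scaled counts over library size) in the combination group and 414 to 2139 in the tretinoin group. Although the methods name mice of both sexes, of 5 sex-linked genes found only Xist passed the count filter. Xist was at 350 to 648 CPM in the combination group and 364 to 513 CPM in the tretinoin group. The Y-linked Ddx3y, Eif2s3y, Kdm5d and Uty were below the filter. Of 9 mesothelial genes listed, 3 were not analysed here, Wt1 and Pdpn were high enough to be tested, while Krt19, Lrrn4, Gpm6a and Upk3b had at most 17 reads in any tumour. Pdpn, a glycoprotein of mesothelial cells, was at 71.4 to 93.0 CPM with both agents and 59.9 to 76.2 CPM with tretinoin (0.27 ± 0.05 on the log2 scale, SE, adjusted p = 0.0033), and the transcription factor Wt1 rose by 1.27 ± 0.38 from lower levels (adjusted p = 0.025).

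Most genes that changed past a fold limit were higher in the combination group than with tretinoin alone. Of 14393 genes tested, 269 were higher in the combination group with an adjusted p below 0.05 and a log2 fold change of 1 or more (1.87% of genes) and 31 were lower by the same margin (0.215%). Adjusted p-values throughout are from edgeR's quasi-likelihood test with Benjamini-Hochberg correction over all genes tested, and a gene past both limits is termed called. Without the fold limit, 1777 genes were higher (12.3%) and 1297 were lower (9.01%), so rises outnumbered falls by less once small changes were counted. Levels in the 2 groups did not overlap for 44 genes that were higher (0.306%) and 58 that were lower (0.403%). The median log2 fold change of all genes tested was -0.0044. These shares of all genes are the background for the counts of list members given below. Removing AB33 gave 400 higher and 50 lower calls, while removing combination tumour AB41 gave 178 higher calls. In comparisons chosen after the data were seen, the 10 combination tumours against the 5 tretinoin tumours of name series 3 gave 42 higher and 18 lower calls, and 166 and 31 without AB33. Against the 4 tretinoin tumours of name series 7 there were 465 and 88.

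**Figure D1:**
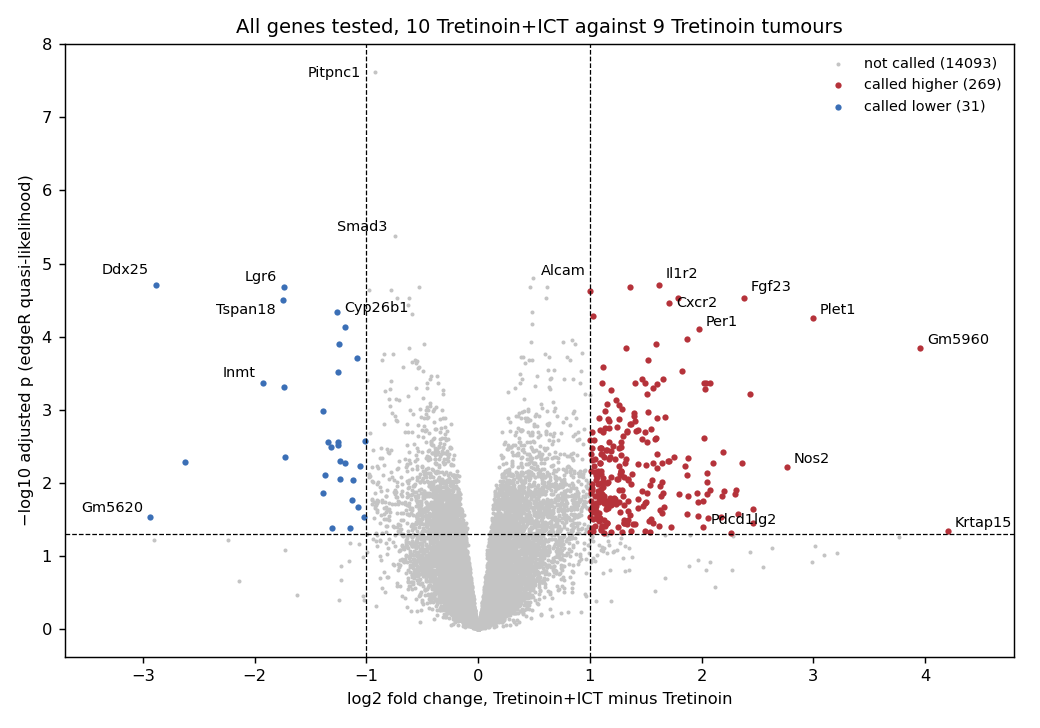
Each point is 1 of 14393 genes, with the log2 fold change of the combination over tretinoin alone on the horizontal axis and -log10 of the adjusted p on the vertical axis. Red points (269) and blue points (31) passed both limits, shown as dashed lines, and the 2 smallest adjusted p-values are those of Pitpnc1 and Smad3, inside the fold limit.

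Among genes that rose most, Plet1, a placental and epithelial surface protein (chr9:50494525-50505482, GRCm38), was at 4.91 to 20.9 CPM (median 8.64) in the combination group and at 0.414 to 3.04 CPM (median 1.28) in the tretinoin group. Every combination tumour lay above every tretinoin tumour, and the log2 fold change was 2.99 ± 0.37 (SE, n = 10 and 9, adjusted p = 5.54e-05). Fgf23, a hormone of phosphate balance made mainly in bone, was at 4.34 to 13.7 CPM against 0.67 to 2.96 CPM, with no overlap and a log2 fold change of 2.38 ± 0.28 (adjusted p = 2.96e-05). Nos2 (chr11:78920787-78960254), the inducible nitric oxide synthase of activated macrophages, was at 14 to 237 CPM (median 40.7) and at 4.46 to 36.3 CPM (median 7.86). The highest values were in AB41 and AB42 and its highest tretinoin value in AB33, so the groups overlapped. The log2 fold change of Nos2 was 2.76 ± 0.60 (adjusted p = 0.00605). Serpinb2, an inhibitor of urokinase in macrophages, rose by 2.36 ± 0.51 (adjusted p = 0.0053), and F10, the precursor of coagulation factor Xa, rose by 2.29 ± 0.59 (adjusted p = 0.0141). Gm5960, annotated as an unprocessed pseudogene, was at 0.829 to 6.84 CPM against 0 to 0.828 CPM (3.95 ± 0.53, adjusted p = 0.000142), and reads of such copies may belong to a related gene.

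The rule of largest changes also picked genes carried by few tumours. Krtap15, a hair keratin-associated protein, was at 73.5 CPM in AB42 and 29.6 CPM in AB22 and at no more than 2.60 CPM in any other tumour. The pseudogene Gm2225 reached 18.5 CPM in AB45 and 6.05 CPM in AB25, against at most 0.953 CPM elsewhere. Rps24-ps3, a ribosomal protein pseudogene, was above every tretinoin tumour in 5 combination tumours, the highest at 80.7 CPM in AB43. Prr15 and Gm15056, also among the largest rises, were not carried by few tumours. They rose by 2.2 ± 0.56 and 2.32 ± 0.70 on the log2 scale (adjusted p = 0.0131 and 0.0267). Prr15 was at 1.21 to 12.9 CPM against 0.198 to 4.05 CPM, and Gm15056 at 5.79 to 81.7 CPM against 0.67 to 27.1 CPM. The highest tretinoin value of both was in AB33. Their adjusted p stayed below 0.05 in 19 and 16 of the 19 fits without 1 tumour. Among the falls, Gm5620 was at 196 CPM in AB71 and 101 CPM in AB34 and at most 10.3 CPM in the other 17 tumours, and Hspd1-ps3 was at 33.2 to 51.4 CPM in 4 tretinoin tumours and at most 5.65 CPM in all others. The values of Krtap15, Gm2225, Rps24-ps3, Gm5620 and Hspd1-ps3 thus describe some of the tumours rather than whole groups.

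The falls that every tumour shared were of another kind. Inmt, an indolethylamine N-methyltransferase, was at 1.03 to 6.30 CPM in the combination group and 7.37 to 24.7 CPM in the tretinoin group (log2 fold change -1.93 ± 0.30, adjusted p = 0.00043). Tspan18, an endothelial tetraspanin, was at 1.57 to 5.36 CPM against 9.10 to 16.8 CPM (-1.75 ± 0.21, adjusted p = 3.15e-05). Lgr6 (chr1:134983301-135105276), a receptor for R-spondins and a marker of epithelial stem cells, was at 4.17 to 13.3 CPM (median 5.62) against 14.6 to 28.0 CPM (median 24.4). None of these 3 overlapped between groups, and Lgr6 fell by 1.74 ± 0.19 (adjusted p = 2.07e-05). Dzank1 fell without overlap (-1.25 ± 0.19, adjusted p = 0.000305). Adam22, the long non-coding RNA Gm22 and Dio3, the deiodinase that inactivates thyroid hormone, fell with overlap, by 1.25 ± 0.25, 1.25 ± 0.17 and 1.24 ± 0.27 (adjusted p = 0.0028, 0.000128 and 0.00506). Ddx25, an RNA helicase of germ cells, was too low for the naming rule and was added after its values were seen: it was at 0.0576 to 0.334 CPM against 0.639 to 2.85 CPM, which is a fall of 2.88 ± 0.30 (adjusted p = 1.97e-05).

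Of the neutrophil markers tested, 5 were higher in every combination tumour than in any tretinoin tumour. Neutrophils are short-lived granulocytes called from the blood by CXC chemokines that bind CXCR2, and they carry the decoy receptor for interleukin 1 and the calcium-binding protein S100A9. Of 9 neutrophil markers tested among 12 found, 6 were called higher, where 1.87% of all genes were. At an adjusted p below 0.05, 7 were higher, where 12.3% of all genes were. The median log2 fold change was 1.62. Higher levels without overlap between groups were seen for 5, and for 0.306% of all genes. Summed over the list the groups overlapped, at 273.6 to 509.3 CPM and 178.8 to 442.5 CPM. Il1r2, the interleukin 1 decoy receptor, was at 10.7 to 23.5 CPM (median 13) in the combination group and at 3.47 to 7.79 CPM (median 4.92) in the tretinoin group. AB24, AB42 and AB41 were highest, and even the lowest combination tumour exceeded the highest tretinoin tumour. The log2 fold change of Il1r2 was 1.62 ± 0.17 (adjusted p = 1.97e-05). Cxcr2, the chemokine receptor, was at 16.1 to 41.1 CPM against 4.45 to 11.2 CPM (1.71 ± 0.20, adjusted p = 3.52e-05), S100a9 at 13.8 to 39.9 CPM against 3.35 to 10.9 CPM (1.66 ± 0.25, adjusted p = 0.000381) and Mmp8, the neutrophil collagenase, at 0.706 to 2.14 CPM against 0.0496 to 0.557 CPM (2.08 ± 0.32, adjusted p = 0.000431). Trem1, an amplifying receptor of granulocytes and monocytes named here after its values were seen, was at 6.96 to 15.0 CPM against 2.79 to 5.27 CPM. The calprotectin partner S100a8 and Cd177, a surface protein of neutrophils, were also called, and the granule genes Camp and Ngp and the surface marker Ly6g were below the filter. In each of the 19 fits that left out 1 tumour, 7 of these markers had an adjusted p below 0.05.

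Genes for the signals that attract and sustain neutrophils were also higher. Of 6 chemoattractants and growth factors tested, 5 were called higher, where 1.87% of all genes were, and the median log2 fold change was 1.31. Cxcl2 was at 3.52 to 12.8 CPM (median 7.91) against 1.09 to 4.31 CPM (median 2.12), and only AB44 and AB45 fell below the highest tretinoin tumour, AB33. The change in Cxcl2 was 1.83 ± 0.27 on the log2 scale (adjusted p = 0.0003). Cxcl5, secreted by epithelial and stromal cells, was at 25.3 to 80.4 CPM against 9.50 to 31.5 CPM (1.33 ± 0.25, adjusted p = 0.00193), and Cxcl1 at 8.02 to 25.0 CPM against 2.98 to 11.6 CPM (1.18 ± 0.25, adjusted p = 0.00448). Csf2, encoding GM-CSF, was at 0.834 to 4.68 CPM against 0.186 to 2.02 CPM (1.75 ± 0.37, adjusted p = 0.00447). For Cxcl5, Cxcl1 and Csf2 the groups overlapped, with 7, 6 and 5 of 10 combination tumours above all 9 tretinoin tumours.

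**Figure D2:**
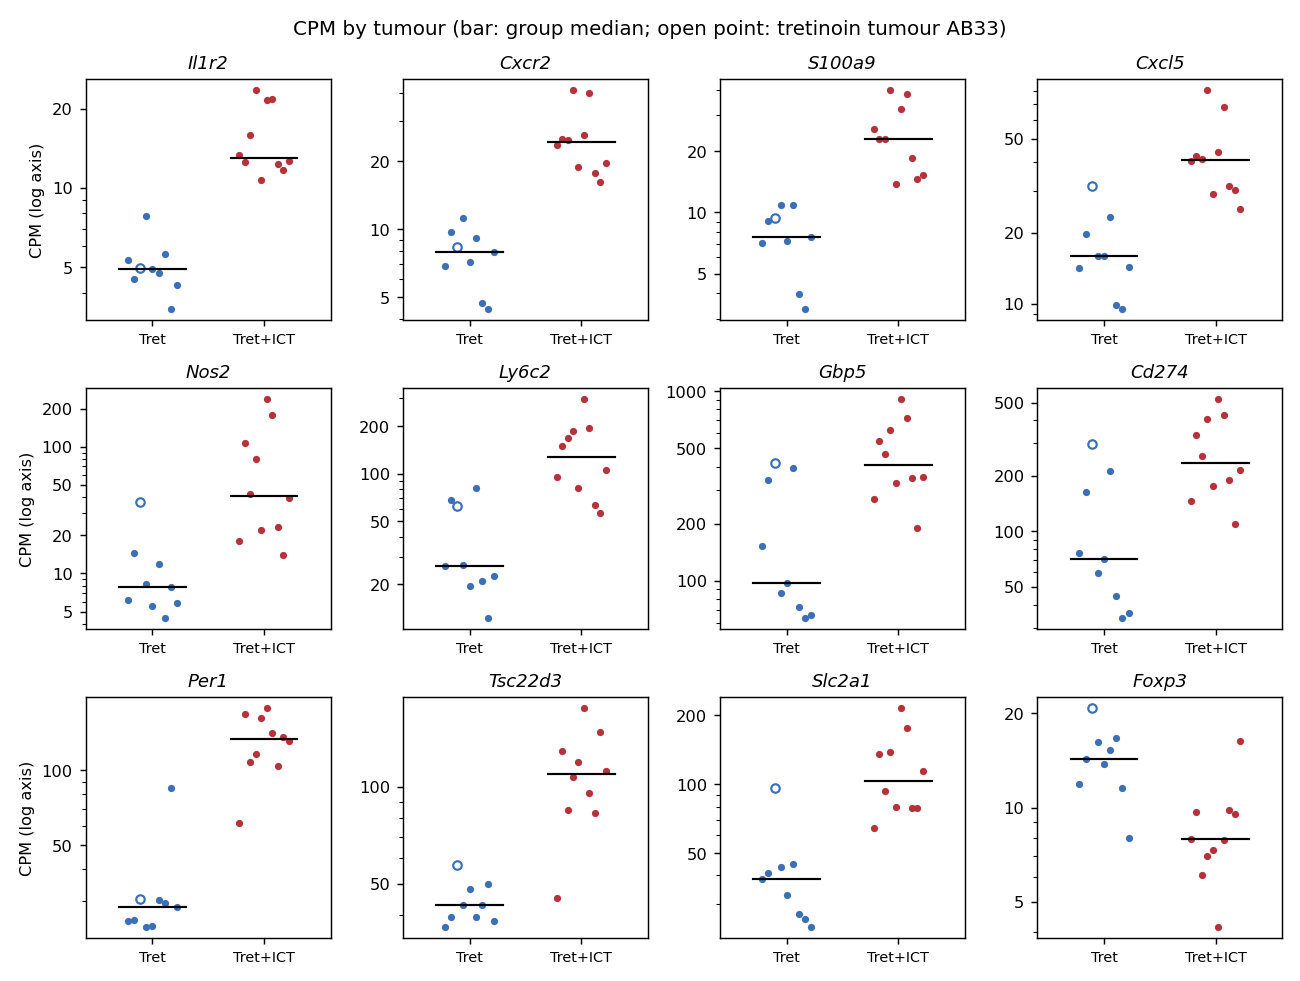
CPM of 12 genes on log axes, 1 point per tumour, with the group median as a bar and AB33 as an open point. Il1r2, Cxcr2 and S100a9 did not overlap between the groups, while for Gbp5 and Cd274 AB33 and 2 other tretinoin tumours reached the combination range.

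Monocyte and macrophage genes were also higher, by less. Of 8 monocyte markers, 4 were called higher, where 1.87% of all genes were. At an adjusted p below 0.05, 6 were higher, where 12.3% of all genes were (median log2 fold change 0.948). Ly6c2, the marker of inflammatory monocytes, was at 56.2 to 296 CPM (median 127) against 12.3 to 81.3 CPM (median 26.0), and 7 combination tumours lay above all tretinoin tumours. It rose by 1.88 ± 0.39 (adjusted p = 0.00462). Ms4a4c rose by 1.09 ± 0.24 (adjusted p = 0.00535). Chil3, a chitinase-like protein of monocytes and alternatively activated macrophages, spanned 7.28 to 145 CPM against 0.609 to 40.5 CPM and rose by 2.46 ± 0.79 (adjusted p = 0.0353). That call was lost in 11 of the 19 fits without 1 tumour. Of 9 macrophage markers, 5 rose at an adjusted p below 0.05 and none reached the fold limit (median 0.473); these counts were 3 to 7 for monocytes and 3 to 8 for macrophages when single tumours were left out, highest without AB33. The scavenger receptor Msr1 rose by 0.69 ± 0.17 (adjusted p = 0.0106), the lysosomal protein Cd68 by 0.47 ± 0.10 (adjusted p = 0.00509) and the mannose receptor Mrc1 by 0.49 ± 0.16 (adjusted p = 0.035, below 0.05 in 8 of the 19 fits). The pan-leukocyte gene Ptprc, encoding CD45, rose by 0.59 ± 0.16 (adjusted p = 0.0187), from 177 to 412 CPM in the tretinoin group to 255 to 582 CPM. Summed monocyte transcripts were 1090 to 2767 CPM against 702.5 to 1671 CPM, and summed macrophage transcripts 3961 to 5738 CPM against 2787 to 5786 CPM; the part that leukocyte number has in any single gene was not tested.

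Fc gamma receptors bind the antibody coat of a target cell, and Fcer1g is their shared signalling chain. Of 5 such genes, 4 rose at an adjusted p below 0.05, where 12.3% of all genes did, and none was called. Fcgr3 was at 192 to 469 CPM against 94.6 to 359 CPM, and below AB33 the next tretinoin tumour, AB71, was at 183 CPM. It rose by 0.94 ± 0.22 (adjusted p = 0.00835). Fcer1g rose by 0.85 ± 0.21 (adjusted p = 0.0108). The inhibitory receptor Fcgr2b rose by 0.64 ± 0.23 (adjusted p = 0.0488). Over the fits without 1 tumour the count of 4 ranged from 2, in 3 fits, to 5 with 3 called, without AB33, and Fcgr2b kept an adjusted p below 0.05 in 4 of the 19.

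All 17 genes of the interferon gamma list had a positive log2 fold change, between 0.56 and 1.34 with a median of 0.946. Of these, 3 were called, where 1.87% of all genes were. At an adjusted p below 0.05 there were 6, where 12.3% of all genes were higher. That count ranged from 1 to 13 as single tumours were left out, the highest without AB71. Gbp5, a guanylate-binding protein that helps to open pathogen vacuoles, was at 190 to 907 CPM (median 409) in the combination group and 63.6 to 417 CPM (median 96.8) in the tretinoin group. The tretinoin tumours AB32, AB71 and AB33 lay within the combination range and the other 6 below it. Gbp5 rose by 1.34 ± 0.42 (adjusted p = 0.0319). Irf1, the transcription factor at the head of the response, was at 523 to 1329.8 CPM against 271 to 801 CPM (0.85 ± 0.24, adjusted p = 0.0187). The immunity-related GTPases Tgtp2 and Irgm2 rose by 1.02 ± 0.35 and 0.90 ± 0.30 (adjusted p = 0.0429 and 0.0431). The adjusted p of Gbp5 stayed below 0.05 in 10 of the 19 fits without 1 tumour, and that of Tgtp2 and Irgm2 in 8. The count of 3 called was 0 in 9 of the 19 fits and highest, at 10, without AB71. Without AB33, 9 of the 17 were called and 12 had an adjusted p below 0.05. Summed over the list, the combination tumours were at 6132 to 18770 CPM and the tretinoin tumours at 2352 to 13050 CPM.

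Interferon gamma acts at the GAS element, and type I interferon acts through a complex at the ISRE, so the promoter windows of these genes were searched for TTCNNNGAA (GAS) and GAAANNGAA (the ISRE core) on both strands. RefSeq windows run from 250 bases before to 50 bases after a start site on GRCm38.p6, and neither motif contains the other, although copies of the ISRE core can overlap. Among 27025 genes with a window, 9.55% held the GAS and 9.76% the ISRE core in at least 1 window. Of the 17 interferon gamma genes 10 matched a window, and 7 of those held the GAS and 9 the ISRE core. Of 22 type I interferon genes 17 matched, with 2 holding the GAS and 12 the ISRE core. Of the 269 genes called higher 193 matched, of which 19.2% held the GAS and 15.5% the ISRE core, and of the 31 called lower 19 matched, with 0 and 1. The stretches below show how the motifs sit in the genes described here, 5′ to 3′ on the gene's strand with motif matches in capitals. For each gene the window with the most matches was taken, so the display favours motifs. The Gbp5 and Irgm2 stretches lie inside the annotated genes, past their first bases at chr3:142493978 and chr11:58199618. Irgm2 and Tgtp2 each have a GAS shortly before an ISRE core. Matches after the start site are not shown. Before it, Irf1 has the GAS alone and B2m the ISRE core alone. Gbp5 has a GAS at either end and, between them, the ISRE core on the other strand, read here as its complement. Oas1a has a GAS and, close to the start site, a pair of overlapping ISRE cores. A match is a stretch of letters and not a measured binding site.
Irf1 (chr11:53769904-53769952, + strand): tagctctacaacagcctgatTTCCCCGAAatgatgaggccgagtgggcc
Irgm2 (chr11:58214882-58214941, + strand): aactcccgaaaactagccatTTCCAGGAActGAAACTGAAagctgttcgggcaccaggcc
Tgtp2 (chr11:49064254-49064313, - strand): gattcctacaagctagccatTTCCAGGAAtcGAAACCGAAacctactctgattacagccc
Gbp5 (chr3:142496684-142496910, + strand): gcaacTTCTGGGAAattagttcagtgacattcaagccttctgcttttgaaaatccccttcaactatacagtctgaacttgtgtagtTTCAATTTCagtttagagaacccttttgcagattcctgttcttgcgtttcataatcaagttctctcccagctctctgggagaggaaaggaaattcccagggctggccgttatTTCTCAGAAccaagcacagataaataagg
Oas1a (chr5:120907526-120907643, - strand): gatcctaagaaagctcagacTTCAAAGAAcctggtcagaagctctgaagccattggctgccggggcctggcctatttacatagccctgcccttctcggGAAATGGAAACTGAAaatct
B2m (chr2:122147528-122147576, + strand): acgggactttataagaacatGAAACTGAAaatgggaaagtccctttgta

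Type I interferon genes moved less. Of 22 antiviral genes, all had a positive log2 fold change (0.17 to 0.80, median 0.417). At an adjusted p below 0.05, 8 were higher, where 12.3% of all genes were, and none reached the fold limit. Oasl1, which restrains translation of Irf7, was at 38.2 to 80.0 CPM against 27.4 to 60.3 CPM (0.67 ± 0.15, adjusted p = 0.00575). Oas1a, a sensor that makes oligoadenylates on double-stranded RNA, rose by 0.50 ± 0.15 (adjusted p = 0.0258). The factors Irf7 and Irf9 rose by 0.43 ± 0.14 and 0.33 ± 0.10 (adjusted p = 0.0298 and 0.028), each kept below 0.05 in 11 of the 19 fits. The count of 8 ranged from 1, in 2 fits, to 19, without AB71, when single tumours were left out.

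Some antigen presentation genes of both classes rose. MHC class I presents peptides made by the immunoproteasome to CD8+ T cells. Of 13 such genes 7 rose at an adjusted p below 0.05 (1 to 12 as single tumours were left out), where 12.3% of all genes did. None was past the fold limit (median log2 fold change 0.534). B2m, the light chain of class I, was at 1793 to 4289.9 CPM against 1089.8 to 3198 CPM (0.65 ± 0.18, adjusted p = 0.0173), and its ISRE core is shown above. Psmb8, an immunoproteasome subunit, rose by 0.72 ± 0.22 (adjusted p = 0.0282), the non-classical H2-T23 by 0.79 ± 0.26 (adjusted p = 0.0349) and H2-D1 by 0.50 ± 0.17 (adjusted p = 0.0387). MHC class II presents to CD4+ T cells after its peptide is exchanged by H2-DM. H2-DMa was at 120 to 384 CPM against 50.1 to 301 CPM, the tretinoin group topped by AB33 (1.0 ± 0.31, adjusted p = 0.0298), and H2-DMb1 and H2-DMb2 changed by 1.03 ± 0.32 and 1.0 ± 0.29 (adjusted p = 0.0314 and 0.0224). Of 8 class II genes 3 were higher at an adjusted p below 0.05 and 2 were called, where 12.3% and 1.87% of all genes were. Over the fits without 1 tumour, these class II counts ranged from 1 (8 fits) to 7 and from 0 (9 fits) to 6, the highest without AB33. H2-DMa kept an adjusted p below 0.05 in 11 of the 19 fits, H2-DMb1 in 10, Psmb8 in 12, H2-T23 in 9 and H2-D1 in 7.

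Chemokines that draw monocytes and T cells rose in part. Of 13 CXCR3 ligands, CC chemokines and receptors, 4 were called higher, where 1.87% of all genes were (median 0.766). At an adjusted p below 0.05, 6 were higher, where 12.3% of all genes were. When single tumours were left out these counts fell to 2 called and 3 past the adjusted p, in 8 fits each, and rose to 6 and 10 without AB33. Ccl7, a monocyte attractant, was at 69.6 to 199 CPM (median 97.5) against 13.1 to 80.0 CPM (median 39.7), with 8 of 10 combination tumours above all tretinoin tumours. Its log2 fold change was 1.47 ± 0.28 (adjusted p = 0.00256). Ccl2, a ligand of the same receptor CCR2, rose by 1.26 ± 0.32 (adjusted p = 0.0124), Ccl12 by 0.77 ± 0.18 (adjusted p = 0.00794) and Cxcl11, a CXCR3 ligand induced by interferon, by 1.31 ± 0.41 (adjusted p = 0.0321, kept below 0.05 in 10 of the 19 fits).

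Of the 2 transcripts whose proteins the antibodies bind, Cd274 rose and Ctla4 did not pass the test. Cd274 (chr19:29367455-29388095), encoding PD-L1, was at 109 to 522 CPM (median 236) in the combination group and 33.9 to 299 CPM (median 71.1) in the tretinoin group. AB33, AB71 and AB32 were the tretinoin tumours inside the combination range. Cd274 rose by 1.33 ± 0.43 (adjusted p = 0.0365), and this was lost in 10 of the 19 fits without 1 tumour, with an adjusted p of up to 0.0735, reached without AB41. Pdcd1lg2, encoding PD-L2, was at 18.2 to 139 CPM against 1.80 to 79.6 CPM, of which the next highest tretinoin value was 13.2 CPM after that of AB33 (2.01 ± 0.67, adjusted p = 0.0408), and its adjusted p stayed below 0.05 in 7 of the 19 fits. Ctla4 was at 5.81 to 13.5 CPM (median 9.02) against 5.91 to 26.3 CPM (median 14.4), a log2 difference of -0.59 ± 0.23 that did not pass (adjusted p = 0.0734). Of 12 checkpoint genes 2 were called higher, where 1.87% of all genes were, a count of 0 in 10 of the 19 fits. At an adjusted p below 0.05, 4 were higher, where 12.3% of all genes were. The other pair was Havcr2, encoding TIM-3 (0.55 ± 0.10, adjusted p = 0.00124), and the costimulatory ligand Cd86 (0.87 ± 0.23, adjusted p = 0.016).

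Among lymphocyte markers, few changed. None of 10 T cell genes was higher at an adjusted p below 0.05 and 1 was lower, where 12.3% and 9.01% of all genes were. The other 9 did not pass. Log2 fold changes of the 10 genes ran from -0.73 to 0.23. The summed level was 69.64 to 153.6 CPM in the combination group and 57.6 to 202.6 CPM in the tretinoin group. Foxp3, the master regulator of regulatory T cells, was at 4.16 to 16.3 CPM (median 7.91) against 7.99 to 20.8 CPM (median 14.3). Apart from AB45, every combination tumour lay below the tretinoin median. Foxp3 fell by 0.73 ± 0.20 (adjusted p = 0.0159). The listed regulatory T cell markers Ccr8 and Ikzf2 did not pass (-0.49 ± 0.21 and -0.21 ± 0.16, adjusted p = 0.0914 and 0.342). Izumo1r, the folate receptor 4 of regulatory T cells, is not in that list and was named as one of the largest falls. It fell by 1.39 ± 0.24 (adjusted p = 0.00105), from 1.80 to 8.31 CPM to 1.02 to 2.92 CPM. For cytotoxic and NK genes, all 8 tested had a positive log2 fold change (median 0.648) and 3 passed the adjusted p, where 12.3% of all genes rose past it. These were the activating receptors Klrk1 (0.92 ± 0.28, adjusted p = 0.0276) and Ncr1 (0.60 ± 0.20, adjusted p = 0.0411) and the transcription factor Eomes (0.70 ± 0.23, adjusted p = 0.0352). The count of 3 ranged from 0, in 4 fits, to 7, without AB33, when single tumours were left out. The other 4 genes of that list were not analysed here. Of 8 B cell genes none passed in either direction.

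Of 10 dendritic cell genes 3 rose at an adjusted p below 0.05, where 12.3% of all genes did. The count was 2 to 4 when single tumours were left out. Batf3, the factor that cross-presenting dendritic cells need, was at 4.62 to 20.8 CPM against 1.05 to 12.6 CPM, with AB33 again the highest tretinoin tumour (1.63 ± 0.43, adjusted p = 0.0153). Xcr1, a receptor of the same cells, rose by 0.58 ± 0.17 (adjusted p = 0.0218) and the integrin Itgax by 0.83 ± 0.25 (adjusted p = 0.027). Of 5 mast cell and eosinophil genes, 6 osteoclast-like genes and 7 TNF ligands and receptors, 1, 1 and 2 rose and none fell, where 12.3% of all genes rose, and the mast cell and eosinophil count was 0 in 9 of the 19 fits without 1 tumour. The TNF receptors were Tnfrsf1a (0.46 ± 0.08, adjusted p = 0.00137) and Cd40 (0.83 ± 0.28, adjusted p = 0.0437), the latter past the adjusted p in 7 of those 19 fits.

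Of 16 inflammatory cytokine and mediator genes tested, 5 were called higher, where 1.87% of all genes were (median 0.846). At an adjusted p below 0.05, 8 were higher, where 12.3% of all genes were. These counts ranged from 3 (2 fits) to 8 and from 5 (9 fits) to 11 when single tumours were left out, the highest without AB33. Osm, oncostatin M of activated myeloid cells, was at 6.93 to 25.2 CPM (median 11.1) against 2.48 to 7.56 CPM (median 3.97), with 8 combination tumours above all tretinoin tumours (1.60 ± 0.25, adjusted p = 0.000438). Il6 was at 1.45 to 8.04 CPM against 0.183 to 1.77 CPM (1.56 ± 0.37, adjusted p = 0.00929). Within the inflammasome list, 5 of 8 genes passed the adjusted p upward, where 12.3% of all genes did. These were the inflammatory caspase Casp4 (0.86 ± 0.19, adjusted p = 0.00683), the adaptor Pycard (1.08 ± 0.26, adjusted p = 0.0103), Il18 (0.77 ± 0.16, adjusted p = 0.00404) and the receptor antagonist Il1rn (1.01 ± 0.21, adjusted p = 0.0041), and, named after its values were seen, Il1b itself (1.08 ± 0.29, adjusted p = 0.0159). Toll-like receptor genes rose by less, with 8 of 18 past the adjusted p and none called, where 12.3% and 1.87% of all genes were. These included the adaptors Myd88 (0.50 ± 0.11, adjusted p = 0.00539) and Ticam1 (0.59 ± 0.13, adjusted p = 0.00655) and the RNA sensors Tlr7 and Tlr8 (0.39 ± 0.10 and 0.43 ± 0.12, adjusted p = 0.0098 and 0.0168). When single tumours were left out, the count of 8 ranged from 5, in 9 fits, to 10, without AB33.

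Genes of the type 2 response rose beside those of interferon gamma. Type 2 cytokines such as interleukin 13 signal through Il4ra and induce the chemokines Ccl17 and Ccl24 in macrophages. Of 8 genes, 4 were called higher, where 1.87% of all genes were. At an adjusted p below 0.05, 7 were higher, where 12.3% of all genes were. The median log2 fold change was 1.38. Ccl17 was at 8.31 to 40.1 CPM (median 23.3) against 2.37 to 13.6 CPM (median 4.29), and 7 combination tumours lay above all tretinoin tumours. Ccl17 rose by 1.86 ± 0.41 (adjusted p = 0.00594), Ccl24 by 2.05 ± 0.54 (adjusted p = 0.0144) and Il4ra by 0.59 ± 0.12 (adjusted p = 0.00329). Il13, at low levels, was at 0.652 to 5.66 CPM against 0.0496 to 2.08 CPM (2.31 ± 0.59, adjusted p = 0.0126). The count of 7 ranged from 4, in 9 fits, to 7, in 5 fits, when single tumours were left out.

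**Figure D3:**
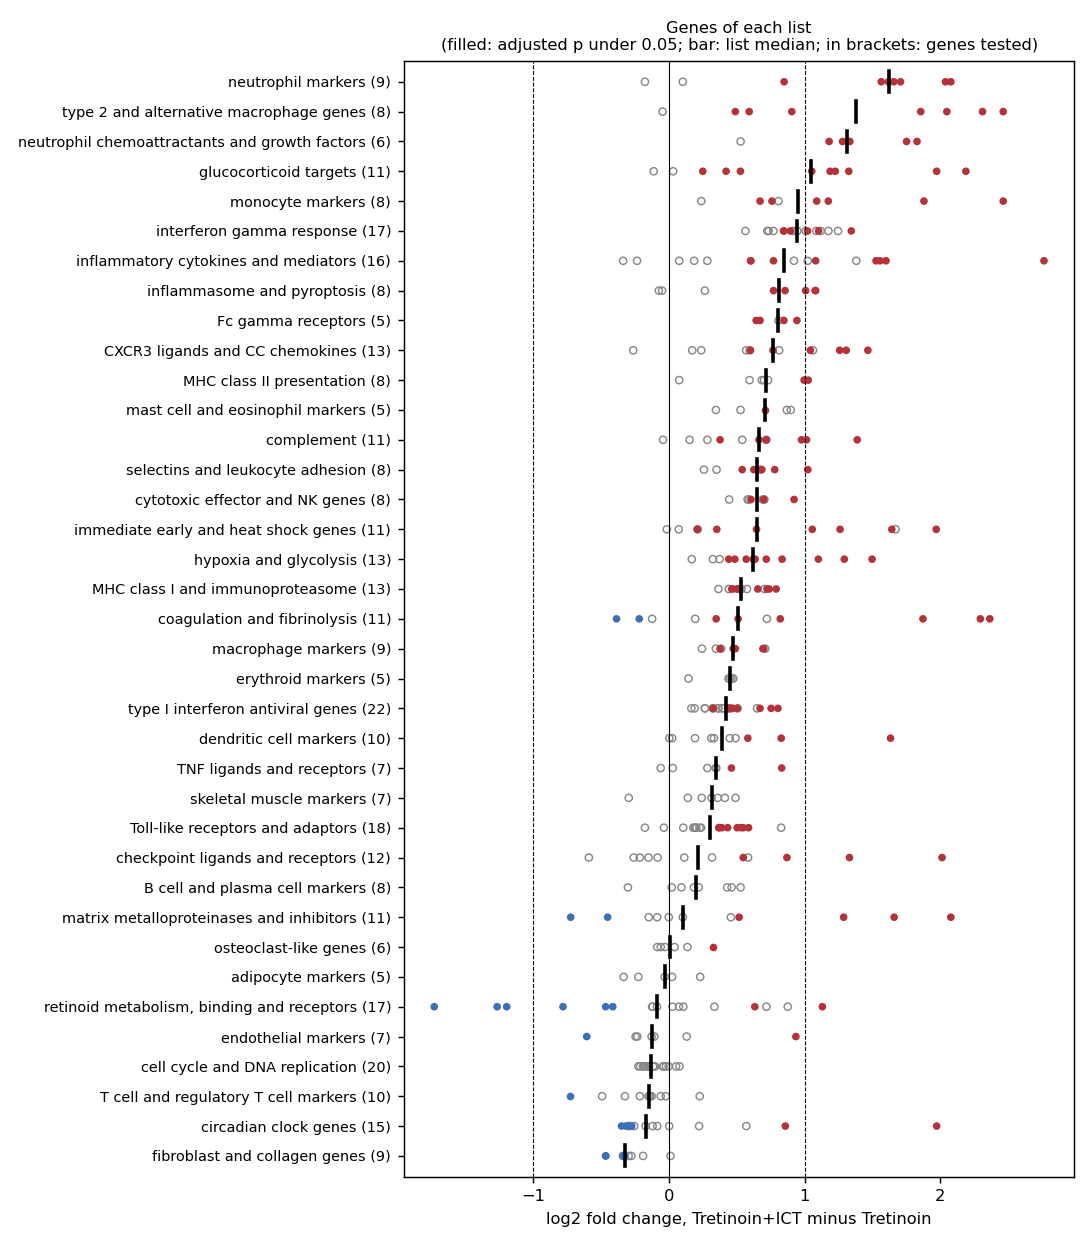
Log2 fold changes of the genes of each list, 1 point per gene, filled where the adjusted p was below 0.05, with the list median as a bar and the number of genes tested in brackets. Neutrophil markers had the highest median (1.62) and fibroblast and collagen genes the lowest (-0.326).

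Complement, coagulation and matrix genes changed in selected members. Of 11 complement genes 6 passed the adjusted p upward, where 12.3% of all genes did (2 to 9 as single tumours were left out, the highest without AB33). Calls were made for 2, where 1.87% of all genes were called higher, a count of 0 in 9 fits. C3, the central component, was at 693 to 4404 CPM against 252 to 2728 CPM (1.39 ± 0.45, adjusted p = 0.0364, below 0.05 in 8 of the 19 fits), and Cfb, of the alternative pathway, rose by 1.01 ± 0.30 (adjusted p = 0.0234). Serping1, the C1 inhibitor, rose by 0.98 ± 0.28 (adjusted p = 0.0223). In fibrinolysis, the urokinase receptor Plaur rose by 0.51 ± 0.09 (adjusted p = 0.0012), while Plat, tissue plasminogen activator, fell by 0.39 ± 0.10 (adjusted p = 0.0133). Of 11 matrix metalloproteinases and their inhibitors, 4 rose and 2 fell at an adjusted p below 0.05, where 12.3% and 9.01% of all genes did. Their median log2 fold change was 0.102. Besides Mmp8, macrophage elastase Mmp12 rose by 1.66 ± 0.48 (adjusted p = 0.0214), the collagenase Mmp13 by 1.29 ± 0.33 (adjusted p = 0.0124) and the inhibitor Timp1 by 0.52 ± 0.11 (adjusted p = 0.00439). The stromelysins Mmp3 and Mmp10, named after their values were seen, fell by 0.45 ± 0.16 and 0.72 ± 0.24 (adjusted p = 0.0451 and 0.0407), and the count of falls was 0 in 8 of the 19 fits without 1 tumour.

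Collagen and fibroblast genes fell in part. Of 9 fibroblast and collagen genes, 4 fell at an adjusted p below 0.05, where 9.01% of all genes did, and none rose; no fall reached the fold limit and the median log2 fold change was -0.326. Pdgfra, the receptor of fibroblasts for PDGF, was at 135 to 226 CPM (median 198) against 211 to 322 CPM (median 236), with 7 combination tumours below all tretinoin tumours (-0.33 ± 0.09, adjusted p = 0.019). Col5a1 fell by 0.47 ± 0.14 (adjusted p = 0.0247), Pdgfrb by 0.46 ± 0.15 (adjusted p = 0.0304) and Col1a2 by 0.34 ± 0.12 (adjusted p = 0.0421). That count ranged from 1 without AB74 to 7 without AB44, and Col1a2 stayed past the adjusted p in 6 of the 19 fits. Endothelial markers as a list hardly moved (median -0.128), but the VEGF receptors parted, Flt1 higher by 0.94 ± 0.25 (adjusted p = 0.015) and Kdr lower by 0.61 ± 0.18 (adjusted p = 0.0229). Adhesion molecules for leukocytes were higher, with 5 of 8 past the adjusted p, where 12.3% of all genes rose past it. Among the 5 were Icam1 (1.02 ± 0.26, adjusted p = 0.0125), the integrin chain Itgb2 (0.78 ± 0.21, adjusted p = 0.0169) and E-selectin, Sele (0.68 ± 0.16, adjusted p = 0.00797). None of 20 cell cycle genes passed, with log2 fold changes from -0.23 to 0.08.

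Most glycolysis and hypoxia genes were higher. The glucose transporter Slc2a1 was at 64.3 to 215 CPM (median 104) against 23.8 to 96.9 CPM (median 38.7). Without AB33 the highest tretinoin value was 45.0 CPM in AB71, below every combination tumour. Slc2a1 rose by 1.5 ± 0.28 (adjusted p = 0.00201). Of 13 genes in the list, 10 had an adjusted p below 0.05, all upward, and 3 were called (median 0.621). The shares of all genes higher by these rules were 12.3% and 1.87%. Ndrg1, a hypoxia-induced gene, rose by 1.29 ± 0.25 (adjusted p = 0.00232), and the glycolytic enzymes Eno1 and Ldha by 0.49 ± 0.09 and 0.44 ± 0.10 (adjusted p = 0.0021 and 0.00477). Summed over the list, levels were 3923 to 7499 CPM against 2753 to 4931 CPM.

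Most glucocorticoid targets were higher. Glucocorticoids act through a nuclear receptor that induces Tsc22d3 (GILZ), Per1 and metallothioneins, and they are released under stress. Per1 (chr11:69095217-69109960), also a component of the circadian clock, was at 61.5 to 178 CPM (median 134) against 23.5 to 84.6 CPM (median 28.4). Tretinoin tumour AB74 was high and combination tumour AB21 was low, and without these the groups were apart. Per1 rose by 1.97 ± 0.25 (adjusted p = 7.98e-05) and Tsc22d3 by 1.32 ± 0.18 (adjusted p = 0.000143). Of 11 listed targets 6 were called higher, where 1.87% of all genes were. At an adjusted p below 0.05, 9 were higher, where 12.3% of all genes were, with a median of 1.05. Their summed level of 892.1 to 1463 CPM did not overlap that of the tretinoin group, 649.7 to 859.4 CPM. Lcn2, lipocalin 2 of neutrophils and epithelia, rose by 2.19 ± 0.44 (adjusted p = 0.00385) and Mt1 by 1.19 ± 0.24 (adjusted p = 0.00373). At least 8 of the 11 passed in each fit without 1 tumour. Other clock genes fell slightly: Cry2, Nr1d2 and Tef by 0.32 ± 0.05, 0.28 ± 0.08 and 0.27 ± 0.07 (adjusted p = 0.000537, 0.0183 and 0.0154). Of 15 clock genes 4 fell and 2 rose at an adjusted p below 0.05, where 9.01% and 12.3% of all genes did. Immediate early genes respond within minutes to stimulation. In a list of immediate early and heat shock genes, 7 of 11 rose at an adjusted p below 0.05, where 12.3% of all genes did. Examples were Atf3 (1.64 ± 0.35, adjusted p = 0.0053), Ier3 (1.26 ± 0.28, adjusted p = 0.00598) and Junb (0.65 ± 0.12, adjusted p = 0.00214). The hour of resection is not given in the sources used here, and its part in these genes was not tested.

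Several genes of retinoid metabolism were lower in the combination group. By the labels both groups received the same tretinoin doses, but a difference in tretinoin exposure cannot be told apart from the addition of ICT. Cyp26b1 (chr6:84571414-84593908) encodes a cytochrome P450 that hydroxylates and so clears retinoic acid. It was at 52.8 to 169 CPM (median 118) in the combination group and 237 to 375 CPM (median 311) in the tretinoin group. All combination tumours were below all tretinoin tumours, with AB21 lowest. Cyp26b1 fell by 1.27 ± 0.15 (adjusted p = 4.58e-05), which is 2.40-fold lower. Dhrs3 (chr4:144892827-144928209), which turns retinaldehyde back to retinol, was at 111 to 204 CPM against 253 to 322 CPM and fell by 0.78 ± 0.09 (adjusted p = 2.29e-05). Stra6, the retinol transporter, was at 14.6 to 31.1 CPM against 33.2 to 76.6 CPM and fell by 1.2 ± 0.15 (adjusted p = 7.48e-05). None of these 3 overlapped. Lrat, which esterifies retinol for storage, fell by 1.73 ± 0.37 (adjusted p = 0.00445), the binding protein Crabp2 by 0.41 ± 0.08 (adjusted p = 0.00305) and the receptor Rarg by 0.47 ± 0.08 (adjusted p = 0.00114).

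Most other retinoid genes did not pass, and 2 rose. Rara, encoding retinoic acid receptor alpha, was at 43.2 to 65.0 CPM against 28.0 to 39.8 CPM, with no overlap (0.63 ± 0.09, adjusted p = 0.000191), and Aldh1a2, an enzyme that makes retinoic acid, rose by 1.13 ± 0.32 (adjusted p = 0.019). Of 17 genes tested, 6 were lower at an adjusted p below 0.05, where 9.01% of all genes were. Only 2 were higher, near the 12.3% of all genes, and 9 did not pass. The 6 falls held in each of the 19 fits without 1 tumour. Among those that did not pass, log2 differences were -0.12 ± 0.08 for the retinol dehydrogenase Rdh10, 0.03 ± 0.20 and 0.72 ± 0.28 for the retinaldehyde dehydrogenases Aldh1a1 and Aldh1a3, -0.12 ± 0.28 for the binding protein Crabp1, and 0.33 ± 0.22 for Tgm2, a transglutaminase that retinoic acid induces in many cells. The retinoid X receptors Rxra and Rxrb differed by 0.11 ± 0.06 and -0.09 ± 0.04. The other 3 genes of the list were not analysed here.

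The levels of these genes in all 4 treatment groups are set side by side here, with no test. On a scale set over all 39 tumours, Cyp26b1 had a median of 8.33 CPM in 10 PBS tumours and 15.9 CPM in 10 tumours given ICT alone, against 318 CPM with tretinoin and 120 CPM with both. The corresponding medians of Dhrs3 were 44.8, 59.8, 273 and 167 CPM, and those of Lgr6 were 3.47, 3.06, 25.0 and 5.67 CPM. Stra6 had medians of 23.2, 13.4, 52.3 and 21.7 CPM in the same order, so that with both agents it lay near the PBS level. Rara was at 37.4, 46.7, 37.1 and 53.7 CPM, higher in the groups given ICT.

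**Figure D4:**
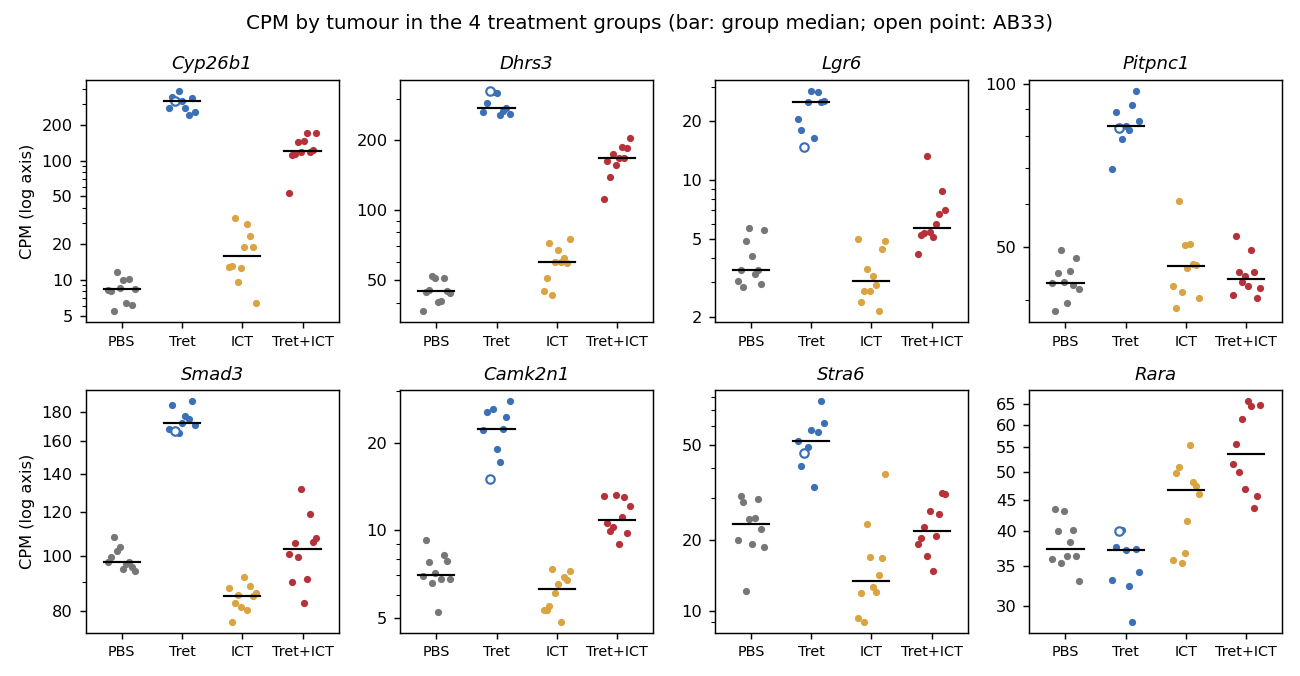
CPM of 8 genes in each tumour of the 4 treatment groups on log axes, with the group median as a bar. Cyp26b1 and Dhrs3 with both agents lie between tretinoin alone and the groups without tretinoin, and Pitpnc1 with both agents lies at the level of the groups without tretinoin.

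Further genes with small adjusted p-values, several with folds under the limit, are named here after their values were seen. Pitpnc1 (chr11:107207892-107470699), a phosphatidylinositol transfer protein, was at 39.5 to 52.1 CPM (median 43.4) in the combination group and 68.8 to 97.4 CPM (median 82.4) in the tretinoin group. The gap between the groups was wider than the spread within the combination group, and the fall was 0.92 ± 0.06 on the log2 scale (adjusted p = 2.38e-08). In PBS and ICT tumours, on the scale over 39 tumours, Pitpnc1 had medians of 43.0 and 46.1 CPM. Smad3 (chr9:63646767-63757994), which carries TGF-beta signals to the nucleus, was at 82.2 to 130 CPM against 161 to 188 CPM (-0.75 ± 0.07, adjusted p = 4.27e-06). Nr2f2, an orphan nuclear receptor of stroma and veins, fell by 0.53 ± 0.06 (adjusted p = 2.07e-05), Camk2n1, an inhibitor of CaM kinase II, by 0.97 ± 0.11 (adjusted p = 2.33e-05) and Smg6, a nuclease of nonsense-mediated decay, by 0.62 ± 0.08 (adjusted p = 0.000143). Upward, the adhesion molecule Alcam was at 33.8 to 43.0 CPM against 24.5 to 27.4 CPM (0.49 ± 0.05, adjusted p = 1.60e-05), and the survival gene Bcl2l1 was at 75.2 to 102 CPM against 46.6 to 62.3 CPM (0.62 ± 0.07, adjusted p = 2.07e-05). Slfn4, Klf13 and Olfm1 also rose without overlap, by 1.59 ± 0.21, 1.03 ± 0.13 and 1.0 ± 0.11 (adjusted p = 0.000127, 5.24e-05 and 2.37e-05). Of the 58 genes that were lower without overlap, 8 reached the fold limit and all 58 had an adjusted p below 0.05.

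The effect of ICT on a tretinoin background was set beside its effect without tretinoin, in 20 tumours that this comparison does not use. ICT against PBS called 323 of 14155 genes higher (2.28%) and 9 lower (0.0636%). Of the 269 genes called higher here, 168 were called higher there, which is 62.5% of the first list and 52% of the second. Of 240 of the 269 tested in both, 237 had the same sign without tretinoin, with medians of 1.28 here and 1.2 there. Of the 31 genes called lower, 4 were called lower by ICT alone, 24 of 25 tested in both had the same sign, and the medians were -1.25 and -0.49.

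**Figure D5:**
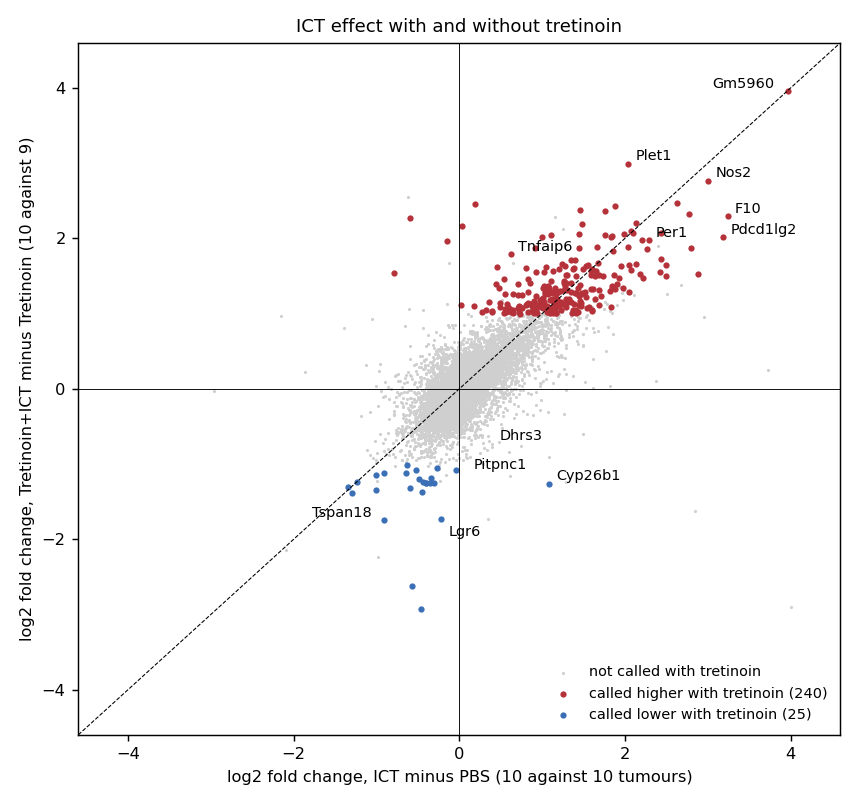
Log2 fold change of ICT over PBS (horizontal) against that of the combination over tretinoin (vertical) for 14062 genes tested in both, 1 point per gene, with equality as a dashed line. Red points (240) lie around the line, and blue points (25) lie mostly below it, with Cyp26b1 above 0 on one axis and below 0 on the other.

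The difference between the 2 effects was tested directly as an interaction over all 39 tumours. Unequal tretinoin exposure and name series cannot be told apart from ICT in this test. Of 14977 genes, 46 passed an adjusted p of 0.05 (0.307%), 6 with a more positive and 40 with a more negative effect of ICT on the tretinoin background. Of the 46, 33 were lower here at an adjusted p below 0.05, of which 26 did not pass with ICT alone and 5 rose with it. Only 1 gene called higher here and 2 called lower were among them. Cyp26b1 rose by 1.08 with ICT alone (adjusted p = 0.00527) and fell here, a difference of -2.36 ± 0.29 (adjusted p = 5.87e-06). For Pitpnc1 the difference was -1.01 ± 0.09 (adjusted p = 3.07e-09), for Dhrs3 -1.18 ± 0.13 (adjusted p = 3.37e-07), for Lgr6 -1.52 ± 0.26 (adjusted p = 0.00173) and for Smad3 -0.52 ± 0.07 (adjusted p = 9.42e-05). Tnfaip6, a hyaluronan-binding protein induced by inflammation and named after its values were seen, had the opposite sign, with a rise of 1.79 ± 0.21 here (adjusted p = 2.96e-05) and a difference of 1.15 ± 0.25 (adjusted p = 0.0231). Sele was the other positive one named, at 0.86 ± 0.20 (adjusted p = 0.0378). Leaving out AB33 gave 47 genes in place of 46.

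The combination group held 6 tumours from mice labelled responders and 4 from non-responders, called on a second tumour left in place. Against the same 9 tretinoin tumours, the responder tumours gave 490 higher and 85 lower calls and the non-responder tumours 22 and 15; group sizes differ, and the difference between the 2 was not tested here.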

How the data were processed

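Total RNA of 39 AB1-HA tumours was sequenced as single-end NovaSeq reads, 1 tumour per mouse. Per the labels and the study's methods, the authors demultiplexed with bcl2fastq 2.20.0.422, aligned with HISAT2 2.0.4 and counted with SummariseOverlaps, and the deposited values are whole-number read counts per Ensembl gene, with no normalization. Strand setting and treatment of multi-mapping reads are not given in the sources used here, so antisense, overlapping and pseudogene counts are uncertain. Of 39676 gene IDs, 36719 matched GENCODE M21 (GRCm38) by ID and version, which gave types and positions; the build named by the study was not used for coordinates.

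Tumours were grouped by treatment label. The 10 Tretinoin+ICT and 9 Tretinoin tumours were fitted together in edgeR 4.0.16 (R 4.3.3) with TMM scaling, filterByExpr and the robust quasi-likelihood test, with Benjamini-Hochberg adjustment over the 14393 genes kept. Calls needed an adjusted p under 0.05 together with a log2 fold change of 1 or more in size. Each SE was back-calculated as the size of the log2 fold change over the square root of the test's F statistic. CPM values are TMM-scaled and list sums add them over all members found in the table, tested or not. The ICT against PBS fit used the same steps on 20 tumours and the interaction all 39. Named genes were the 12 largest called changes in each direction with a mean log2 CPM of at least 1, up to 4 members of each list with the smallest adjusted p, the genes of both antibody targets, Ptprc and the retinoid genes at 1 CPM or more. Genes added after their values were seen are named as such. Some genes picked by these rules are not reported here. The comparison, its members and the lists were chosen with earlier results of these data known. Alternatives were DESeq2 1.42.0, other size factors, filters, a fit of all tumours, thinned libraries, each tumour left out, responders and non-responders, and name series. The fitting steps were tested on simulated data. P-values measure the spread between tumours of separate mice, and replicate numbers are names only. Promoter windows are from RefSeq (GRCm38.p6). Columns were matched to samples by the tumour name, and totals of 15435493 to 37951183 counts set the precision.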

Additional observations from a re-analysis of the deposited data

Results flagged for a closer look

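Among 302 groups of values examined, 22 had a tumour far from the rest by Dixon's ratio, and chance alone flags about 1 in 20 groups. AB33 accounted for 12 of the 22. In the tretinoin group it was the highest tumour for Prr15 (4.047 CPM), Fcgr3 (358.9), H2-DMb2 (169.2), Pdcd1lg2 (79.61), Flt1 (78.54), Slc2a1 (96.86), Eno1 (1051), Mmp13 (7.242), Batf3 (12.57), Il1b (70.18) and Itgax (117.6), and the lowest for Adam22 (6.976 CPM). The other tretinoin tumours set apart were AB34 for Serpinb2 (11.38 CPM), AB32 for Inmt (24.68), AB74 for Per1 (84.65) and AB72 for Cry2, the lowest (19.33). In the combination group AB21 was lowest for Cyp26b1 (52.83 CPM) and Per1 (61.5), AB44 was lowest for Cxcl11 (26.94 CPM) and stood apart for Plat (62.32), AB23 was highest for Aldh1a1 (15.21 CPM), and AB45 had a total of 37950000 counts.

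By the interaction test over all 39 tumours, the change with ICT differed with and without tretinoin for 9 named genes. Unequal tretinoin exposure and name series cannot be told apart from ICT in that test. On the log2 scale the difference was -2.36 for Cyp26b1, -1.52 for Lgr6, -1.18 for Dhrs3, -1.01 for Pitpnc1, -0.75 for Camk2n1, -0.55 for Smg6 and -0.52 for Smad3, and it was 1.15 for Tnfaip6 and 0.86 for Sele. The first 7 were lower in the combination group than with tretinoin alone, and the last pair higher.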

How the results depend on the processing

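The larger count of rises than of falls among calls held under each alternative run, but the counts moved. The 31 lower calls became 104 with DESeq2, 97 with no low count filter, 15 with at least 10 counts in every tumour and 50 with all 39 tumours in one fit, which also gave 1993 lower at adjusted p alone in place of 1297. Leaving out single tumours gave 178 (AB41) to 400 (AB33) higher calls, 27 (AB74) to 50 (AB33) lower calls, 1238 to 2367 higher and 852 (AB72) to 2107 (AB33) lower at adjusted p alone. Without AB33, 224 genes were higher and 142 lower with no overlap, in place of 44 and 58. Responder tumours gave 490 higher and 85 lower calls, with 2067 lower at adjusted p alone, and non-responder tumours gave 22 and 15, with 57 higher and 77 lower at adjusted p alone. By name series, 2 against 3 gave 19 higher and 13 lower calls (49 and 43 at adjusted p alone), 2 against 7 gave 211 and 57 (675 and 421), 4 against 3 gave 17 and 6 (30 and 17) and 4 against 7 gave 257 and 36 (510 and 157); the part of fewer tumours in these counts was not tested. In settings chosen after seeing the data, the tretinoin tumours of series 3 gave 42 and 18 (120 and 135), 166 and 31 without AB33 (520 and 293), and those of series 7 gave 465 and 88. The interaction gave 85 genes with DESeq2 in place of 46.

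Of 150 named genes, 142 had an adjusted p below 0.05, and 109 of these kept it in every fit without 1 tumour. Many more lost it with fewer tumours: 99 against the tretinoin tumours of series 3 and 22 against those of series 7. By series, 107 lost it in 2 against 3, 120 in 4 against 3, 65 in 2 against 7 and 74 in 4 against 7. With non-responder tumours 104 lost it, and with responder tumours 3 did. The part of fewer tumours in these losses was not tested. Rps24-ps3 changed sign with non-responder tumours (-0.59), and so did members near 0 that had not passed: Crabp1 (0.031) and Tgm2 (-0.060) there, Aldh1a1 with thinned libraries (-0.0036), responders (-0.14), series 4 against 3 (-0.20) and series 3 with and without AB33 (-0.069 and -0.062), and Crabp1 in series 4 against 3 (0.20) and against series 3 (0.077). Over the fits without 1 tumour, Aldh1a1 spanned -0.13 to 0.16 and Crabp1 -0.28 to 0.022. No paired analysis was possible because replicate numbers were given in accession order and pair no tumours. Name series and treatment cannot be told apart, and low-count genes such as Lrat and Il13 are limited by depth.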
